A study of Mus musculus with 4 samples.

Results

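The 53 genes described here were chosen from the 4121 genes of the deposited table by symbols of cell cycle and DNA replication genes. The symbol pattern takes in cyclins, cyclin-dependent kinases and their inhibitors, E2F factors, origin and helicase proteins, replicative polymerases, centromere proteins, condensins, kinesins and the Aurora, Polo, BUB and NEK kinases. The pattern reads symbols and no measured values, although it and the list of roles used below were drawn up with earlier results of these data known. A gene could only be found if it stood in the table, which holds genes that passed the authors' call for a difference between genotypes. By a list of roles, 44 of the 53 act in the cycle itself. The list places the remaining 9, among them motors of transport along axons, outside the cycle.

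RNA came from the distal colon of 8-week-old C57BL/6 mice with colitis, caused by 3% dextran sulfate sodium (DSS), a compound that damages the gut lining, and the inflamed tissue was taken at day 6. Wild-type mice (WT) and mice lacking the Ets-family transcription factor Elf4 (Elf4-KO) gave 2 samples each, and both groups carried colitis, so no uninjured colon enters any value. The labels do not tell whether the samples of a genotype were separate animals, or how the Elf4 allele was made. Every level is in FPKM, a fragment count scaled by transcript length and by the mapped total, and the table gives 1 value per genotype, so no SD or n can be attached to it and depth is unknown. Elf4 itself stood at 16.4 FPKM in WT and 3.51 FPKM in Elf4-KO, with 21.4% of the WT level left.

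A dividing cell passes from G1, where D-type and E-type cyclins with their kinases release E2F factors from retinoblastoma proteins, into S phase, where licensed origins fire and DNA is copied. In G2 and mitosis, cyclin A, cyclin B and the Polo and Aurora kinases drive spindle assembly, and centromere proteins tie chromosomes to the spindle. In the colon this happens mainly in the lower crypt, where stem and transit cells renew the epithelium, and also in activated lymphocytes and in stromal cells of injured tissue. Many of these genes share promoter elements: E2F sites at genes of G1 and S phase, and the cell cycle homology region (CHR) with CCAAT boxes at genes of G2 and mitosis.

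Promoter windows of 6 members are printed here because they hold these elements and belong to genes on which the results below turn. Each window is the coding strand from 250 bases before to 50 bases after a RefSeq start site on GRCm38.p6. Capitals mark matches on either strand to CHR (TTTGAA or TTCGAA), the CCAAT box (CCAAT) or an E2F site (TTTGGCGC, TTTCCCGC, TTTCGCGC or TTTGCCGC). Cdc6 and Mcm5 act in S phase, Aurka, Plk1 and Top2a in G2 and mitosis, and E2f3 is the E2F gene that went against the rest. The Cdc6 window is chr11:98907901-98908200 on the plus strand, and that of Mcm5 is chr8:75109259-75109558 on the plus strand. The Cdc6 window lies wholly inside the annotated gene, which starts at 98907801. Aurka has chr2:172370521-172370820 on the minus strand, Plk1 chr7:122159185-122159484 on the plus strand and Top2a chr11:99024140-99024439 on the minus strand. For E2f3 the upstream window of 2 is shown, chr13:29986014-29986313 on the minus strand. It lies outside the locus that the table gives for E2f3.
Cdc6: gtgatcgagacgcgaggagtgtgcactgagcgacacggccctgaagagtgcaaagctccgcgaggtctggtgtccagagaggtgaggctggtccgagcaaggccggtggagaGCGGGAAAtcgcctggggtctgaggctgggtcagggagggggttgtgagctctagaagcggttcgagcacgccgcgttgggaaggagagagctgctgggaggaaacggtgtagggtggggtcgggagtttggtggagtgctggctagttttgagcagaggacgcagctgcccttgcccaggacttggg
Mcm5: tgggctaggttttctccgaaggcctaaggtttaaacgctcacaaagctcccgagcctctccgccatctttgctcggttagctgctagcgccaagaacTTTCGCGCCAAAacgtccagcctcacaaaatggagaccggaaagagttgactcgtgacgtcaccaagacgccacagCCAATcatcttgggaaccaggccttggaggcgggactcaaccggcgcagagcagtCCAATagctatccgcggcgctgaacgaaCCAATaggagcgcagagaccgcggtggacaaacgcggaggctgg
Aurka: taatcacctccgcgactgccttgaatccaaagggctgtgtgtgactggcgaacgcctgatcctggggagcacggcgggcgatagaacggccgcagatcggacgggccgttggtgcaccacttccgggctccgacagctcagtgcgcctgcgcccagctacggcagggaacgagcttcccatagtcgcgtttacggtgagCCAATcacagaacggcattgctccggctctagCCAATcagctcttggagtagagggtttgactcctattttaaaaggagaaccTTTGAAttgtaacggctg
Plk1: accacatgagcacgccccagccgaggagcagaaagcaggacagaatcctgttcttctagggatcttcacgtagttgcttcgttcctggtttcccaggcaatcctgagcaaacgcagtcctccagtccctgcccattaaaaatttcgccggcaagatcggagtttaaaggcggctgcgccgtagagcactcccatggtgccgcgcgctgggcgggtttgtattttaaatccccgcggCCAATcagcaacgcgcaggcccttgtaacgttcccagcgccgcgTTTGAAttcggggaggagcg
Top2a: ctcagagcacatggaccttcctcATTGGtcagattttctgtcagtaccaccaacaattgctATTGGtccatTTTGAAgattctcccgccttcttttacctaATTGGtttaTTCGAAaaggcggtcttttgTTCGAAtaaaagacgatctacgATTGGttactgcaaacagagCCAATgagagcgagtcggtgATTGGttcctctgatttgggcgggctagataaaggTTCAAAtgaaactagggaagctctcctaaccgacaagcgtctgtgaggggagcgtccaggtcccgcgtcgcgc
E2f3: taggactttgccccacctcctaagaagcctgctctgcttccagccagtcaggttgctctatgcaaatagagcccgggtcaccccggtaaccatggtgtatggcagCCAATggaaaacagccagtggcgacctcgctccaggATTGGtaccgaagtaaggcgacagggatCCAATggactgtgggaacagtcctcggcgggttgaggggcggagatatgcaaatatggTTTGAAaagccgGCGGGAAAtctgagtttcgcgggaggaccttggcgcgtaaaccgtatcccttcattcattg

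Cell cycle genes were mostly lower in Elf4-KO colon. Of the 53 members, 45 (84.9%) fell and 8 (15.1%) rose, beside 52.0% lower and 48.0% higher over all 4121 listed genes. Among the 44 members with a role in the cycle, 42 fell and 2 rose, the exceptions being the activator E2f3 and the inhibitor Cdkn2d. Every listed member of the S phase machinery (7 of 7) and of G2 and mitosis (26 of 26) was lower, although the log2 ratios of Cenpe, Cenpj, Kif2c and Kif20b lie above 0 once the median of the whole table is subtracted. Of the 9 members that the list of roles places outside the cycle, 6 were higher and 3 lower. The list thus sets aside 6 of the 8 higher members, and the count of 42 among 44 depends on it. The median log2 ratio of Elf4-KO over WT, computed after adding 1 FPKM to both values, was -1.02 over the 53 members and -0.76 over the whole table. Every listed gene passed a 2-fold limit, so the table median does not mark genes without change. With 0 FPKM added, the log2 ratios of Cenpe, Cenpj, Kif2c and Kif20b were -1.23, -1.01, -1.06 and -1.17.

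The falls were of moderate and similar size. The 42 lower members with a role in the cycle fell by a median of 2.71-fold, which left 37.0% of the WT level. Of these, 23 fell between 2-fold and 3-fold, 15 between 3-fold and 4-fold, and 4 by 4-fold or more. Over all 53 members, 7.55% were lower by at least 4-fold, beside 24.5% of all listed genes (1011 of 4121, counting genes listed at 0 in Elf4-KO). Of the lower genes only, 8.89% of the members and 47.2% of the table reached 4-fold. The authors' 2-fold limit cuts the table at 50% left, so smaller falls are not seen, and the median falls above are medians of genes that passed it.

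**Figure D1:**
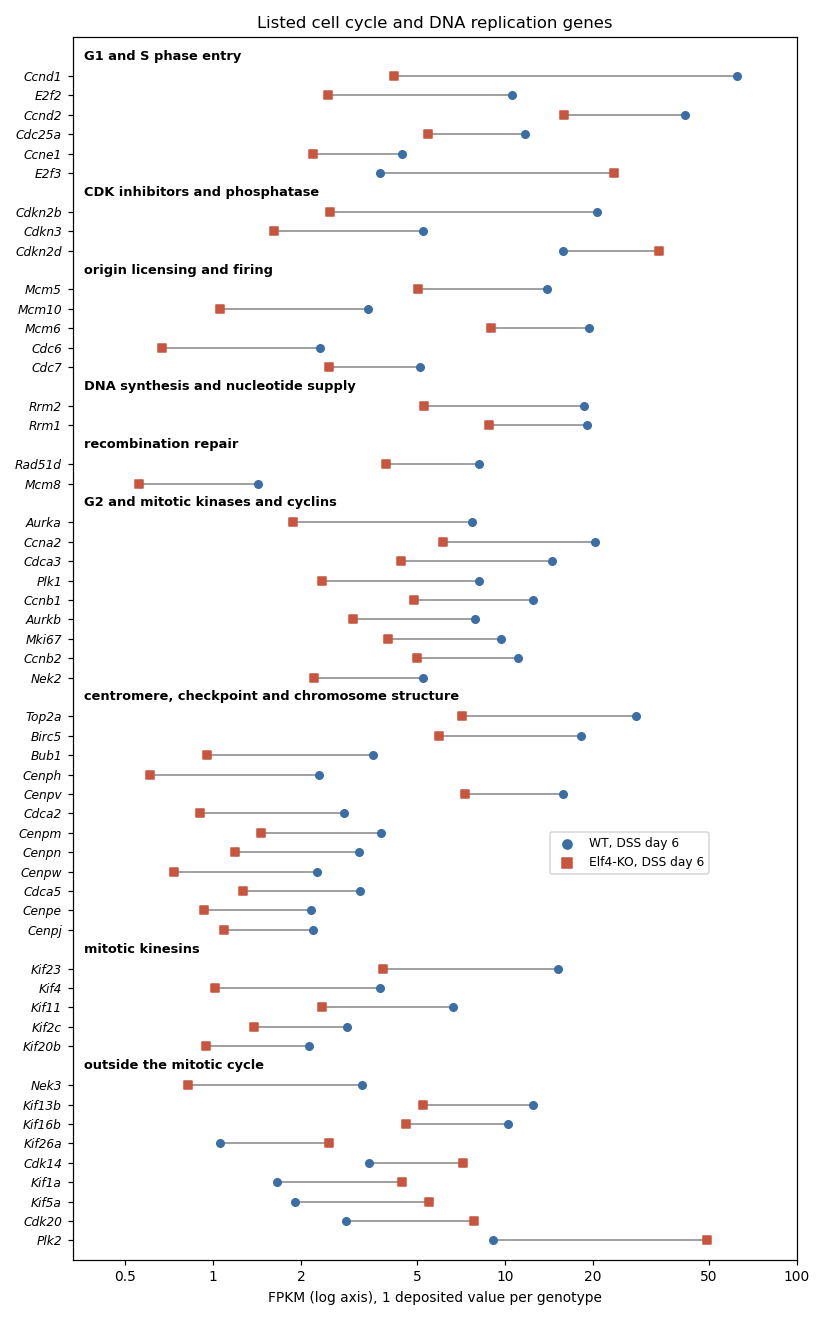
FPKM of each of the 53 members on a log axis, grouped by role, with WT as circles and Elf4-KO as squares joined by a line, 1 deposited value per genotype. The Elf4-KO square lies left of the WT circle for 45 members and right of it for 8, among them E2f3, Cdkn2d and Plk2.

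G1 and S phase entry held the largest single change. Ccnd1, the gene of cyclin D1, which couples growth signals to G1 progression, stood at 62.3 FPKM in WT and 4.18 FPKM in Elf4-KO. This was a 14.9-fold fall (q = 0.000372 in the authors' deposited table) and left 6.71% of the WT level, the least of all members. That q is the smallest in the table, shared by 2233 of the 4121 listed genes and 17 of the 53 members, so it does not rank them. The related gene Ccnd2 (cyclin D2) went from 41.4 to 15.9 FPKM, a 2.60-fold fall. In WT the D1 level was therefore 1.5 times the D2 level, and in Elf4-KO it was 0.262 times. The table's loci of Ccnd1 (chr7:144915100-144939925) and Ccnd2 (chr6:127122966-127212411), both on the minus strand of GRCm38, run 14831 and 62414 bases longer than the annotated genes, so reads from neighboring transcripts may be counted in both.

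The E2F genes moved apart. E2f2, an activator of S phase genes, went from 10.6 FPKM in WT to 2.47 FPKM in Elf4-KO, a 4.28-fold fall (q = 0.000372 in the authors' deposited table). E2f3, another activator of the same class, went from 3.72 to 23.6 FPKM, a 6.34-fold rise (q = 0.000372 in the authors' deposited table). The E2f2 level was 2.84 times that of E2f3 in WT and 0.105 times in Elf4-KO. E2f3 lies at chr13:29906575-29985668 on the minus strand, and no other listed gene overlaps it. The other listed genes of this step both fell: Cdc25a, whose phosphatase activates cyclin-dependent kinases, from 11.7 to 5.45 FPKM, and Ccne1, the gene of cyclin E1, from 4.43 to 2.19 FPKM. Ccne1 was near both limits of the table, with a 2.02-fold fall and q = 0.0436 in the authors' deposited table. The genes Ccnd3, Ccne2, Cdk2, Cdk4, Cdk6 and E2f1 are not listed and not analysed here.

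Inhibitors of cyclin-dependent kinases also moved in both directions. Cdkn2b, encoding the INK4 inhibitor of Cdk4 and Cdk6 that TGF-beta induces in epithelia, went from 20.7 FPKM in WT to 2.52 FPKM in Elf4-KO, an 8.21-fold fall (q = 0.000372 in the authors' deposited table). Cdkn2d, another INK4 inhibitor, went from 15.8 to 33.6 FPKM, a 2.12-fold rise (q = 0.00609 in the authors' deposited table). The Cdkn2b level was 1.31 times the Cdkn2d level in WT and 0.0750 times in Elf4-KO. Cdkn3, a phosphatase that acts on cyclin-dependent kinases, went from 5.24 to 1.62 FPKM, a 3.24-fold fall (q = 0.0166 in the authors' deposited table). Of the INK4 genes 2 of 4 are listed, and of the CIP/KIP genes, which include Cdkn1a, 0 of 3.

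**Figure D2:**
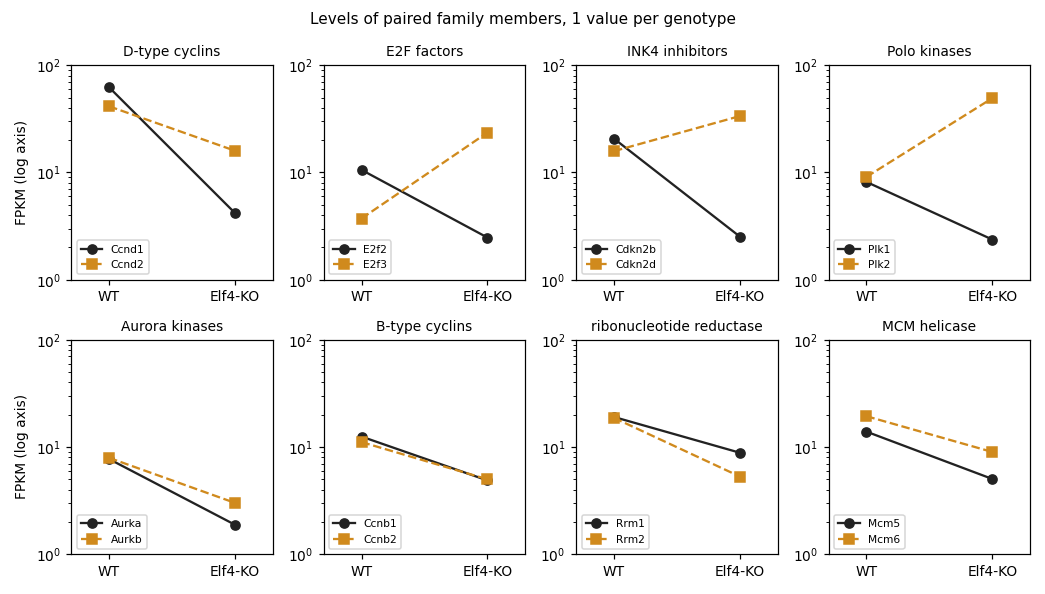
FPKM in WT and Elf4-KO, on a log axis, for 8 pairs of family members, 1 deposited value per genotype and no error. Lines cross for Ccnd1 and Ccnd2, for E2f2 and E2f3, for Cdkn2b and Cdkn2d and, by a small margin, for Ccnb1 and Ccnb2 (ratio 1.13 in WT and 0.976 in Elf4-KO). They part for Plk1 and Plk2, and in the lower row both members of each pair fall.

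Genes that license and fire origins all fell. Mcm5 and Mcm6 encode subunits of the replicative helicase. Mcm5 went from 13.9 FPKM in WT to 5.03 FPKM in Elf4-KO (2.77-fold, q = 0.000372 in the authors' deposited table) and Mcm6 from 19.3 to 8.97 FPKM (2.16-fold, q = 0.00312 in the authors' deposited table). Mcm10, needed to activate the loaded helicase, went from 3.39 to 1.06 FPKM, a 3.21-fold fall (q = 0.00498 in the authors' deposited table). Cdc6, which loads the helicase at origins, went from 2.32 to 0.670 FPKM, the largest fold of the step at 3.46. Cdc7, the kinase that fires origins, went from 5.13 to 2.49 FPKM. These are 5 of 20 annotated genes of the step. None of the 6 Orc genes, the 4 Gins genes or Mcm2, Mcm3, Mcm4 and Mcm7 is listed.

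For DNA synthesis, the listed members were both subunits of ribonucleotide reductase, which makes deoxynucleotides. Rrm2, the subunit that appears in S phase, went from 18.7 FPKM in WT to 5.29 FPKM in Elf4-KO, a 3.52-fold fall. Rrm1, the large and more stable subunit, went from 19.0 to 8.83 FPKM, a 2.16-fold fall, and both carried q = 0.000372 in the authors' deposited table. Levels of the subunits were close in WT, with an Rrm1 to Rrm2 ratio of 1.02, and stood at 1.67 in Elf4-KO. Pcna, Tyms, the 10 genes of polymerases alpha, delta and epsilon, and the 5 Rfc genes are not listed and not analysed here. In recombination repair, Rad51d went from 8.17 to 3.91 FPKM and Mcm8, above 0 after subtraction of the table median, from 1.43 to 0.559 FPKM, with q = 0.0237 and q = 0.0420 in the authors' deposited table.

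Kinases and cyclins of G2 and mitosis fell together, 9 of 9. Aurka, the Aurora kinase of the spindle poles, went from 7.71 FPKM in WT to 1.88 FPKM in Elf4-KO, a 4.10-fold fall (q = 0.000372 in the authors' deposited table), and is the only listed member of G2 and mitosis past 4-fold. Ccna2 (cyclin A2) went from 20.3 to 6.14 FPKM, a 3.31-fold fall, although its locus in the table runs 12259 bases longer than the annotated gene. Cdca3, which promotes mitotic entry, went from 14.5 to 4.41 FPKM, a 3.28-fold fall (q = 0.000694 in the authors' deposited table). Plk1, the Polo kinase of mitosis, went from 8.17 to 2.37 FPKM.

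The remaining kinases and cyclins fell by 2.22-fold to 2.63-fold. Ccnb1 and Ccnb2, the B-type cyclins that activate Cdk1, stood at 12.5 and 11.1 FPKM in WT and at 4.87 and 4.99 FPKM in Elf4-KO. Aurkb, the Aurora kinase of the chromosomal passenger complex, went from 7.91 to 3.01 FPKM. Mki67, the gene of the proliferation antigen Ki-67, went from 9.71 to 3.96 FPKM. Nek2, a kinase of centrosome separation, went from 5.22 to 2.22 FPKM. The ratio of Ccnb1 to Ccnb2 was 1.13 in WT and 0.976 in Elf4-KO, and that of Aurka to Aurkb was 0.975 and 0.625. Cdk1, Cdc20 and Plk4 are not listed.

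Of 35 annotated genes of the centromere, the spindle checkpoint and chromosome structure, 12 are listed (34.3%) and 12 fell, with Cenpe and Cenpj turning above 0 when the table median is subtracted. Top2a, the topoisomerase that untangles sister chromatids, went from 28.1 FPKM in WT to 7.10 FPKM in Elf4-KO, a 3.96-fold fall (q = 0.000372 in the authors' deposited table), and had the highest WT level in S phase, G2 and mitosis. Birc5, encoding survivin of the passenger complex, went from 18.2 to 5.96 FPKM, a 3.05-fold fall (q = 0.00128 in the authors' deposited table). Bub1, a checkpoint kinase, went from 3.53 to 0.952 FPKM, a 3.71-fold fall (q = 0.00184 in the authors' deposited table).

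Of 21 annotated Cenp genes 7 are listed and 7 fell. Among the inner kinetochore genes, Cenph went from 2.31 to 0.610 FPKM, Cenpm from 3.75 to 1.46 FPKM, Cenpn from 3.16 to 1.19 FPKM and Cenpw from 2.28 to 0.733 FPKM. Cenpe, a kinetochore motor, went from 2.17 to 0.927 FPKM, Cenpv from 15.7 to 7.30 FPKM, and Cenpj, which acts at the centriole, from 2.19 to 1.09 FPKM. Cdca2, a phosphatase adaptor on chromosomes, went from 2.81 to 0.901 FPKM and Cdca5, encoding sororin of the cohesin ring, from 3.20 to 1.26 FPKM. The q values of these low genes ran up to 0.0402 in the authors' deposited table. None of the 6 condensin Ncap genes is listed. Cenph and Ccnb1 are neighbors on the minus strand of chromosome 13, 2751 bases apart, and Cdc6 and Top2a lie 69003 bases apart on opposite strands of chromosome 11.

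Of 12 annotated kinesins that the list of roles counts as mitotic, 5 are listed (41.7%) and 5 fell. Kif2c and Kif20b turned above 0 when the table median was subtracted. The list of roles places Kif2a and Kif2b outside the cycle, and neither is among the listed genes. Kif23, the centralspindlin motor of cytokinesis, went from 15.1 FPKM in WT to 3.81 FPKM in Elf4-KO, a 3.97-fold fall (q = 0.00384 in the authors' deposited table). Kif4, a chromosome arm motor, went from 3.74 to 1.02 FPKM, a 3.68-fold fall (q = 0.00671 in the authors' deposited table), and its locus overlaps the listed gene Pdzd11. Kif11, which separates the spindle poles, went from 6.62 to 2.36 FPKM, a 2.81-fold fall (q = 0.000372 in the authors' deposited table). Kif2c, a microtubule depolymerase, went from 2.86 to 1.38 FPKM and Kif20b, which acts in cytokinesis, from 2.13 to 0.948 FPKM. Kif14, Kif15, Kif18a, Kif18b, Kif20a, Kif22 and Kif24 are not listed.

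By phase, the listed genes of S phase machinery and of G2 and mitosis had similar median falls. The median fall was 2.77-fold over the 7 genes of licensing and synthesis and 2.73-fold over the 26 of G2 and mitosis. The sum of FPKM over the 26 went from 215.1 to 72.8, with 33.9% left, and over the 7 from 81.8 to 32.3, with 39.5% left. No interval for these differences can be given. What differed more was how many genes were listed. For S phase it was 7 of 40 annotated genes (17.5%), and for G2 and mitosis 26 of 64 (40.6%). In all, 3833 of 21951 protein-coding genes (17.5%) were listed. The shares by phase depend on the list of roles, drawn up with earlier results of these data known. It places the unlisted genes Nek6, Nek7, Nek9, Kif2a and Kif2b, among others, outside the cycle. The count of lower listed genes was 9.01% of all annotated protein-coding genes. An unlisted gene may have changed less than the authors' limits or have been too low to call, and these cannot be told apart here.

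**Figure D3:**
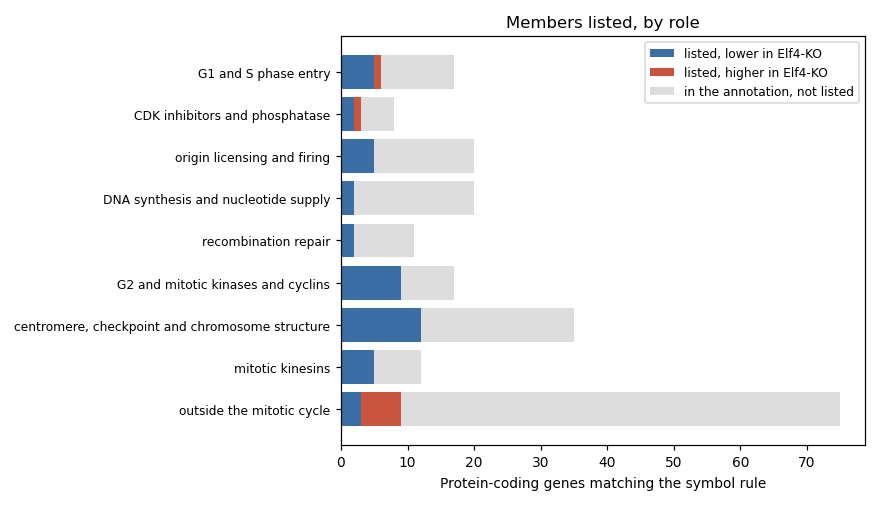
Number of protein-coding genes of the annotation that match the symbol pattern, by role, split into listed and lower, listed and higher, and not listed. DNA synthesis has 2 of 20 listed, kinases and cyclins of G2 and mitosis 9 of 17, as the list of roles counts them.

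Members placed outside the cycle behaved otherwise. Plk2, a Polo-like kinase induced by stress and by neuronal activity, went from 9.09 FPKM in WT to 49.3 FPKM in Elf4-KO, a 5.43-fold rise (q = 0.000372 in the authors' deposited table). Plk1 was 0.898 times the Plk2 level in WT and 0.0480 times in Elf4-KO. The motor genes of axonal transport Kif1a and Kif5a went from 1.66 to 4.43 FPKM and from 1.91 to 5.48 FPKM. Kif26a, an atypical kinesin known from the enteric nervous system, went from 1.05 to 2.50 FPKM. Beside these 3 genes, 6 of 9 enteric neuron and glia markers were listed and 6 rose, with a summed level of 111.8 FPKM in WT and 548.3 FPKM in Elf4-KO and no listed marker at 0. Their part in the rise of the kinesins was not tested.

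The other higher members that the list of roles places outside the cycle were the cyclin-dependent kinase genes Cdk20 and Cdk14. Their placement rests on that list, and their part in the cycle was not tested. Cdk20 went from 2.85 to 7.85 FPKM, a 2.75-fold rise (q = 0.00359 in the authors' deposited table), and Cdk14, a partner of cyclin Y in Wnt signaling, from 3.41 to 7.20 FPKM. The 3 lower members outside the cycle were Nek3, which went from 3.23 to 0.822 FPKM (3.93-fold, q = 0.00156 in the authors' deposited table), Kif13b, from 12.5 to 5.24 FPKM, and the endosome motor Kif16b, from 10.3 to 4.58 FPKM.

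Listed cell cycle genes that the symbol pattern does not reach were also lower. They were chosen with earlier results of these data known and share the same 1 value per genotype, so they are not separate support. Over all protein-coding genes 17.5% were listed, and 52.0% of all listed genes were lower. Of 36 further genes of replication and S phase, 10 were listed and 10 fell, and of 54 of G2 and mitosis, 26 were listed and 26 fell. Their median falls were 2.75-fold and 2.85-fold, close to those of the members. The largest by log2 ratio in S phase were in the PCNA-binding factor gene 2810417H13Rik (21.9 to 5.52 FPKM), the histone chaperone gene Asf1b (6.79 to 1.88 FPKM) and Uhrf1, which guides maintenance of DNA methylation (7.72 to 2.69 FPKM). In mitosis they were in the kinase gene Melk (5.74 to 0.913 FPKM), the cytokinesis gene Ect2 (7.27 to 1.36 FPKM) and Ube2c, a ubiquitin-conjugating enzyme of mitotic exit (27.1 to 7.04 FPKM). The 36 listed genes of both lists kept 35.3% of their summed WT level.

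Genes of p53 signaling and growth arrest split, with 4 higher and 2 lower among 6 listed of 19. Ddit4, an inhibitor of mTOR signaling, went from 43.8 to 187.8 FPKM, Sesn1 from 11.6 to 39.7 FPKM, Trp53inp1 from 33.7 to 73.8 FPKM and Gadd45g from 30.3 to 66.1 FPKM. Ccng2, the gene of a cyclin linked to growth arrest, went from 88.5 to 30.2 FPKM, and Rbl1, encoding the pocket protein p107, from 10.8 to 4.23 FPKM. Of 14 further drivers, among them Myc, Skp2 and the Lin genes, 0 were listed.

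Markers of the cells that could hold these transcripts moved as well. In bulk tissue, fewer cells of a type and less RNA per cell cannot be told apart. FPKM is scaled by the mapped total, so more RNA from other cells cannot be told apart from these either. All 18 pan-epithelial markers were listed and fell, and their summed level went from 11050 to 865 FPKM (7.83% left), with no marker at 0. The median share left was 8.42% for these markers and 37.0% for the lower members of the cycle. Of the 18, 17 lay at 14.0% or below, while the 33 listed genes of S phase, G2 and mitosis kept between 24.4% and 49.8%, so only Cldn4 (38.4%) overlapped them. Ccnd1 (6.71%) and Cdkn2b (12.2%) lay within the range of those 17 markers, from 5.16% to 14.0%, and E2f2, at 23.4%, lay between them and Cldn4. The part of epithelial loss in the cell cycle result was not tested.

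Crypt markers were mixed, with 4 lower and 3 higher among 7 listed of 13, and a summed level of 270.9 FPKM in WT and 322.9 FPKM in Elf4-KO. Sox9, Ephb2, Rnf43 and Prom1 kept between 16.7% and 24.2% of the WT level. Tgfbi (81.9 to 183.8 FPKM), Cd44 (25.0 to 74.0 FPKM) and Smoc2 (5.19 to 27.5 FPKM) rose. The higher sum comes from these 3 genes alone, so it does not show that the other crypt markers were kept. The stem cell markers Lgr5, Ascl2 and Olfm4 are not listed. For T and NK cells, 10 of 14 markers stood in the table and 10 fell, from a summed 186.9 to 55.6 FPKM, with a median of 34.1% left. Of 14 B cell and germinal center markers 4 were listed and 4 fell, from a summed 36.1 to 8.91 FPKM. Of 8 fibroblast markers 5 were listed and of 8 endothelial markers 6, and these rose to 388% and 350% of their summed WT levels. Of 12 neutrophil markers 11 were listed, with 9 higher and 2 lower (Ly6g and Ltf), and their summed level went from 1284 to 5259 FPKM (409%). Of the 12 markers of monocytes and macrophages, 4 stood in the table and 4 rose, from a summed 145.1 to 519.4 FPKM (358%). Of 6 neutrophil precursor markers and 6 smooth muscle markers 0 were listed. No listed marker of these lists was at 0, and their part in the cell cycle result was not tested.

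**Figure D4:**
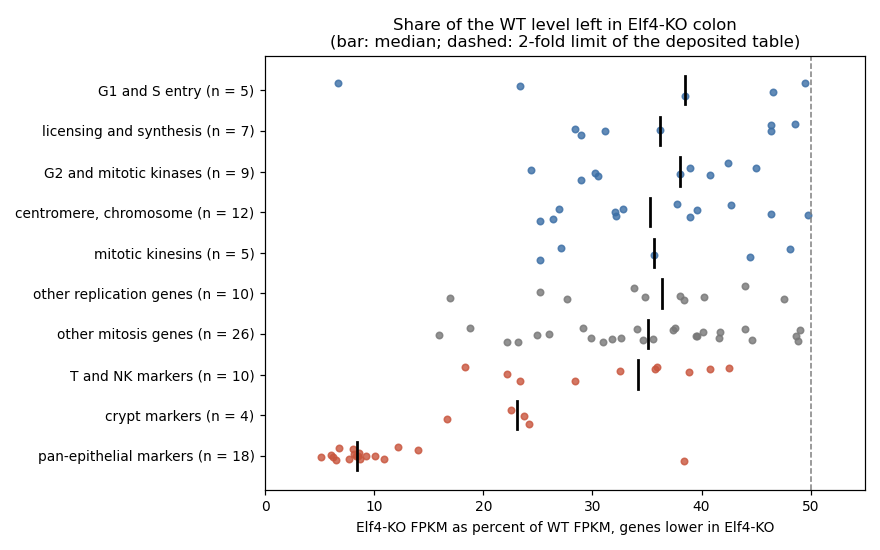
Elf4-KO level as a percent of the WT level for each gene that was lower, by group, with the group median as a bar and the 2-fold limit of the table as a dashed line. T and NK cell markers spread from 18.3% to 42.5% and the 33 genes of S phase, G2 and mitosis from 24.4% to 49.8%, while 17 of 18 pan-epithelial markers lie at 14.0% or below.

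Promoter motifs known from cell cycle genes stood in many windows of the lower members. Windows of unlisted cell cycle genes were not counted, so these shares cannot tell lower genes from cell cycle genes in general. RefSeq windows were found for 45 of 53 members, and Aurkb, Ccna2, Ccnd1, Ccnd2, Cdca2, Kif13b, Kif5a and Rad51d have none. A CHR match stood in 16 of 23 windows of lower G2 and mitosis members (69.6%), in 14.4% of windows of all other listed genes and in 19.2% of all 32851 windows. A CCAAT box stood in 17 of these 23 windows (73.9%), beside 35.9% and 37.4%. In the 15 windows of lower members of G1 entry, inhibition, S phase and repair, a CHR stood in 5 (33.3%), a CCAAT box in 10 (66.7%) and both in 2 (13.3%), so the CCAAT shares of the phases were close and the CHR shares lay further apart. In G2 and mitosis both together were found in 13 of 23 (56.5%), beside 5.20% and 7.52%. In the sequences printed above, Aurka and Plk1 each hold a CHR within 50 bases after the start and at least 1 CCAAT box before it, and Top2a holds 4 CHR and 6 CCAAT matches.

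E2F matches had another distribution. They stood in 6 of 15 windows of lower members of G1 entry, inhibition, S phase and repair (40.0%) and in 1 of 23 windows of G2 and mitosis (4.35%), that of Cenpm, beside 2.30% of windows of all other listed genes and 2.26% of all windows. Mcm5 holds 2 overlapping E2F matches, on opposite strands, and 3 CCAAT boxes, Mcm6 holds 3 E2F matches, and Cdc6 holds 1. In the 34 windows of listed cell cycle genes outside the symbol pattern, 52.9% held a CHR, 58.8% a CCAAT box and 14.7% an E2F match. E2f3, which rose, holds an E2F match, a CHR and 3 CCAAT boxes in its upstream window and none in the other, and Plk2 holds none. The table's E2f3 locus ends at 29985668, so the upstream window lies wholly outside it and the other lies within it. Mean GC content was 59.8% in windows of lower cell cycle members and 58.8% in those of all other listed genes. A match describes letters in the window, not binding, and windows of 1 gene can overlap. Some windows, among them those of Cdc6 and Kif2c, lie wholly inside the annotated gene.

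**Figure D5:**
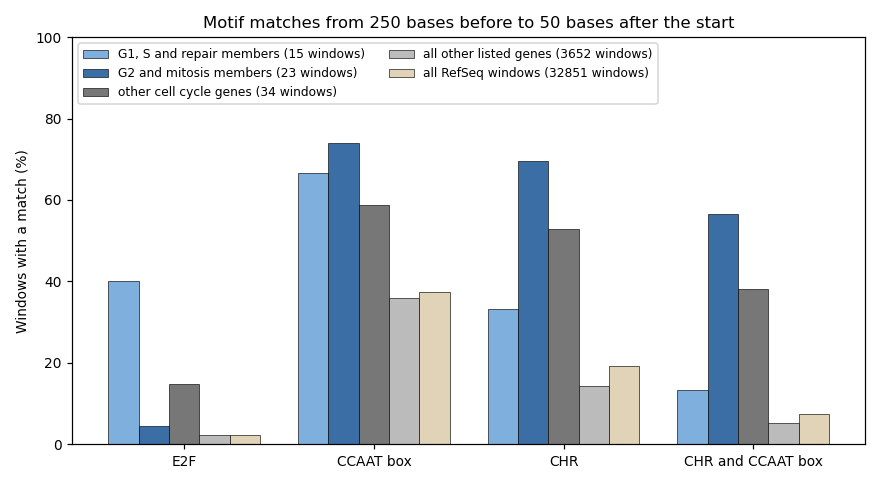
Percent of promoter windows with at least 1 match to each motif, on either strand, for lower members of G1 entry, inhibition, S phase and repair, lower members of G2 and mitosis, other listed cell cycle genes, all other listed genes and all RefSeq windows. E2F bars are highest for G1, S phase and repair (40.0%), CHR bars for G2 and mitosis (69.6%).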

How the data were processed

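RNA was measured by sequencing in 2 WT and 2 Elf4-KO samples. The authors deposited 1 FPKM value per gene and genotype, and p-value and q-value columns of their own comparison, per the file headers. Bowtie 0.12.2, Cufflinks 2.2.1 and mm8 are named, without roles, in the submitters' processing notes. The sources used here do not state how the samples of a genotype were combined or whether counting used strand. The loci of all 53 members lay on the chromosome of their gene in GENCODE M21 (GRCm38), and 38 had its start (after adding 1) and end, so coordinates are given on GRCm38.

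No test between genotypes was run, since there are no values per sample, and rose and fell rest on the authors' call. By the values, q was at most 0.0499971, and the difference at least 2-fold. Folds were taken from the FPKM values and log2 ratios after adding 1 FPKM. Every member is named with its values. Members, role groups, 4 lists of 123 further cell cycle genes and 11 lists of 120 markers were chosen with earlier results of these data known. List genes were matched by symbol or GENCODE identifier, which found Pclaf and Sgo1 under the older names 2810417H13Rik and Sgol1. Promoter windows came from RefSeq (GRCm38.p6), matched by symbol. The median of log2 ratios was tested, with a pseudocount of 0, on simulated data with known ratios. Counts of lower genes were not checked in this way. Alternatives were a q of at most 0.01, a 4-fold limit, minimums of 1 and 5 FPKM, members with a role only, loci without overlap, pseudocounts of 0.1 and 0 and subtraction of the table's median ratio. The work used Python 3.11.15, numpy 2.4.6, pandas 2.3.3 and matplotlib 3.10.9.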

Additional observations from a re-analysis of the deposited data

How the results depend on the processing

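No paired analysis was possible because each genotype has a single column, and leaving out samples could not be run either. Only shifts of over 1.5 times are given. At a 4-fold limit, 4 members were lower, 2 were higher, and their median log2 ratio was -1.67. With at least 5 FPKM, 28 members were lower. Without members outside the cycle, 2 were higher. Centring on the table median of -0.76 gave a member median of -0.26 and turned Mcm8 (0.12), Cenpe (0.04), Cenpj (0.15), Kif2c (0.06) and Kif20b (0.07) to values above 0. That median is taken over genes past the authors' limits and does not mark genes without change. The cell cycle genes beyond the symbol pattern, 36 lower, numbered 23 with q of at most 0.01 and 20 with at least 5 FPKM. These limits keep fewer genes by construction. The other 33 alternatives to counts and medians shifted by less. Depth is unknown.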
